A study of Homo sapiens with 6 samples.

Results

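The clustered protocadherin genes were the 54 of 61155 gene symbols in the count table whose name gives a place in the PCDHA, PCDHB or PCDHG cluster, a choice made by symbol alone. There were 16 in the alpha cluster, 16 in the beta cluster and 22 in the gamma cluster, and 38 of the 54 had enough counts to be tested, among 19521 genes tested in all. RNA sequencing had been performed on H7 human embryonic stem cells (hESCs), an established pluripotent cell line, as 3 wild type (WT) libraries of unmodified H7 and 3 libraries (KO) of S6K1-/- H7. S6K1 is the ribosomal protein S6 kinase encoded by RPS6KB1, which acts downstream of mTORC1, and CRISPR/Cas9 guides had been aimed at exons 9 and 11 of it in the S6K1-/- cells. All 6 libraries came from feeder-free cells kept on Matrigel in TeSR-E8 medium, and the question addressed here is which clustered protocadherins differ in RNA level between S6K1-/- and WT hESCs. The sample labels call the treatment undifferentiation yet carry a time of week 5 and the word knockdown, whereas the protocols describe a knockout in undifferentiated cells. The S6K1-/- libraries were of 1 clone, so that the genotype and the clone cannot be told apart, and nothing states that libraries of a group were separate cultures, so p-values measure the spread between these libraries, which may be technical.

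Clustered protocadherins are cell surface cadherins best known from neurons, in which each cell uses its own set of them and homophilic binding between cells with the same set underlies self-avoidance and self-recognition. Each gene of the alpha and gamma clusters begins with its own large variable exon and promoter, and that exon is spliced to constant exons that all genes of the cluster share. Beta genes are single-exon genes with no constant part. Promoter choice depends on CTCF and cohesin bound at promoters and distal enhancers, and on DNA methylation, and the C-type genes at the 3' end of the alpha and gamma clusters are controlled differently from the others.

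On chromosome 5 of GRCh38, plus strand, the alpha cluster spans 140786136 to 141012347 (226 kb), the beta cluster 141051374 to 141249365 (198 kb) and the gamma cluster 141330514 to 141512977 (182 kb), by the GENCODE release 44 annotation. The coding alpha genes share 2869 exonic bases and the gamma genes share 2177, whereas no exonic base is shared by all beta genes. Reads in the shared exons cannot be given to one gene, and the values of PCDHGC3 below, as low as 0 counts in a library, show that such reads had not been added to every gene of the gamma cluster. The values therefore stand mainly for the variable exons. Variable exons of one cluster resemble each other, and how reads that fit several genes were counted is not given in the sources used here, so single low counts are uncertain. PCDHA14, a pseudogene, had 0 counts in all 6 libraries.

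The start regions of the genes are shown because the differences below separate genes with neighbouring promoters. RefSeq promoter windows (GRCh38.p14, 250 bases before to 50 after the start) were found for 47 of the 54 genes, and none for PCDHA3, PCDHA13, PCDHA14, PCDHB6, PCDHB11, PCDHGA12 and PCDHGC5. The letters GNCGCT, which hold the CGCT core of the conserved protocadherin promoter element, were on the sense strand in 44 of the 47 windows (11 of 13 alpha, 14 of 14 beta and 19 of 20 gamma), against 28.4% of 35116 promoter windows of all genes (44% on either strand). In the lines below, 26 bases around 1 match are printed 5' to 3' with the match in capitals, first for the 5 genes with an adjusted p under 0.001 and then, for comparison, for PCDHB15, PCDHA10 and the C-type gene PCDHAC1.
PCDHGC3: gactctgtgtGCCGCTgtcggccaat
PCDHGC4: gagcccgggaGCCGCTgtctgccaat
PCDHGA10: gactctgagcGCCGCTgttcacctac
PCDHB5: gacgcctggtGGCGCTgcaggctaag
PCDHB3: aacgcatggtGGCGCTgttgactaag
PCDHB15: aacgcatggtGGCGCTgcaggctaag
PCDHA10: gccaccggatGTCGCTgtcgtccaca
PCDHAC1: agaaggtgtgGTCGCTcacgttcacc

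The PCDHGC3 stretch lies at chr5:141475884-141475909 and that of PCDHGC4 at chr5:141484956-141484981, 20 of whose 26 bases are equal, and both run on to GNCGCTGT. The longer forms, which contain GNCGCT, were unevenly spread over the clusters. GNCGCTGT was in 17 of 20 gamma windows and in 23 of the 47 in all, against 2.45% of all promoters on the sense strand (4.35% on either strand). GGTGGCGCT was in 13 of 14 beta windows, against 0.302% (0.501%), and GATGTCGCT was in 9 of 13 alpha windows, against 0.074% (0.105%), and neither of these was found in a window of another cluster. PCDHA9, PCDHAC2 and PCDHGB7 had no sense match to GNCGCT in their windows. The beta gene with the larger rise, PCDHB5, and PCDHB15, the beta gene with a log2 fold change below 0, share the first 16 bases from the start of the match and 24 of the 26 printed, and PCDHB5 and PCDHB3, which both rose, share 21 of 26. PCDHGC3 had 5 sense matches in its window, against 1 or 2 in each other gene with a match, and the 4 that lie in the 150 bases before its start are in capitals in the next lines, together with the same stretch of PCDHGC4.
PCDHGC3: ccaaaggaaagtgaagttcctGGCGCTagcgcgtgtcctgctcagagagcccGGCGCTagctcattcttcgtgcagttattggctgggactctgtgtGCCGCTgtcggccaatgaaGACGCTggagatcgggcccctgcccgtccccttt
PCDHGC4: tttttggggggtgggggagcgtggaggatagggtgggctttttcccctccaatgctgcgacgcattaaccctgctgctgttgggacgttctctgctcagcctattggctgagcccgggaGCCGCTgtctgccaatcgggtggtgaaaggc
These stretches are chr5:141475797-141475946 and chr5:141484847-141484996. CpG dinucleotides numbered 18 in the PCDHGC3 window, 23 in PCDHGC4, 27 in PCDHAC1 and 15 in PCDHAC2, against a median of 14 over all promoters, and 6 in PCDHB5. The matches describe letters only, and binding was not measured.

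Libraries held from 21896698 to 24473013 counts. The targeted gene RPS6KB1 had 831, 791 and 777 counts in WT and 464, 464 and 438 in KO, a log2 fold change of -0.75 ± 0.06 (SE) at an adjusted p of 2.52e-07, with counts taken over the whole gene and not over the targeted exons alone. Each adjusted p given here is from edgeR's quasi-likelihood test unless another is named, adjusted by Benjamini-Hochberg over all genes tested. A gene was called when its adjusted p was under 0.001, which 496 genes lower in KO (2.54%) and 278 higher in KO (1.42%) met. The 9 pluripotency markers, each present in every library (POU5F1 at 3914 counts or more), summed to 6019 to 6152 CPM (counts scaled to the same library size) in WT and 5682 to 5700 in KO, with no overlap. Of these, DNMT3B passed as lower and the other 8 were not called, with log2 fold changes from -0.15 (TDGF1, adjusted p = 0.0308) to 0.17 (ZFP42, adjusted p = 0.00874). The summed level of 12 neural markers was 84.7 to 91.5 CPM in WT and 46.2 to 48.0 in KO, after scaling by the trimmed mean of M values (TMM). Most of this difference lay in STMN2, at 49.9 ± 1.71 CPM in WT and 15.3 ± 0.260 in KO (mean ± SD). Of these 12, the neurogenic factors NEUROD1 and NEUROG2 had at most 2 counts in any library. ELAVL4 had 12, 12 and 9 counts in WT and 0 in every KO library. Of the 8 tested, STMN2 and DCX passed the test as lower and PAX6 as higher. All 8 had an unadjusted p under 0.05 (26.4% of all genes tested did). SOX1, not called, also lay higher in KO (log2 fold change 1.29, adjusted p = 0.0174). The 8 mesoderm and endoderm markers summed to 18.3 to 22.6 CPM in WT and 18.1 to 18.9 in KO, the 5 amnion and trophoblast markers to 5.47 to 7.20 and 3.63 to 4.01. Of these lists 5 and 2 genes were tested, and 0 were called (3.96% of all genes tested were). An unadjusted p under 0.05 was reached by 4 of the 5 and 1 of the 2 (26.4% of all genes tested did). DESeq2's Wald test called 1 in each list. The smallest p in these lists were those of FOXA2 (log2 fold change -0.88, adjusted p = 0.00108) and MIXL1 (0.24, 0.0449) and of KRT7 (-0.82, 0.00103) and GATA3 (-0.18, 0.748). The part of such cells in the results below was not tested, and in these bulk libraries fewer cells of a type and less RNA per cell cannot be told apart.

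Of the 38 clustered protocadherins tested, 1 fell in S6K1-/- hESCs (PCDHGC3, where 2.54% of all genes tested fell) and 4 rose (PCDHB5, PCDHGC4, PCDHGA10 and PCDHB3, where 1.42% rose), together 13.2% against 3.96% of all genes tested. The number that rose was 2 with WT replicate 1, WT replicate 3 or any KO replicate left out and 3 without WT replicate 2, as PCDHGA10 and, in 5 of these 6 cases, PCDHB3 no longer passed. The 3 WT and the 3 KO libraries did not overlap for 17 of the 38 (44.7%), 5 of them lower in KO, against 30.7% of all genes. At an adjusted p under 0.05, 4 were lower (8.31% of all genes were) and 8 higher (5.47%), 31.6% in all against 13.8% of all genes. The median log2 fold change was 0.14 over the 38 and -0.002 over all genes. The filter on low counts kept 4 of the 38 through the KO libraries alone (PCDHB6, PCDHB11, PCDHB16 and PCDHGC5) and 2 through the WT libraries alone (PCDHGC3 and PCDHA8). This tends to draw such counts and medians toward the group that kept a gene, although PCDHA8 lay slightly higher in KO (log2 fold change 0.18). Without these 6, 0 of 32 were called lower and 4 higher (12.5%, against 3.71% of all genes left after the same step). At an adjusted p under 0.05, 3 were lower and 5 higher (25% against 13.3%). The libraries did not overlap for 12 of the 32 (37.5% against 30.0%), and the median was 0.10. The called genes lay in the beta and gamma clusters, as the plot of log2 fold changes along the clusters shows, and whether the clusters differ in their share of called genes was not tested.

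**Figure D1:**
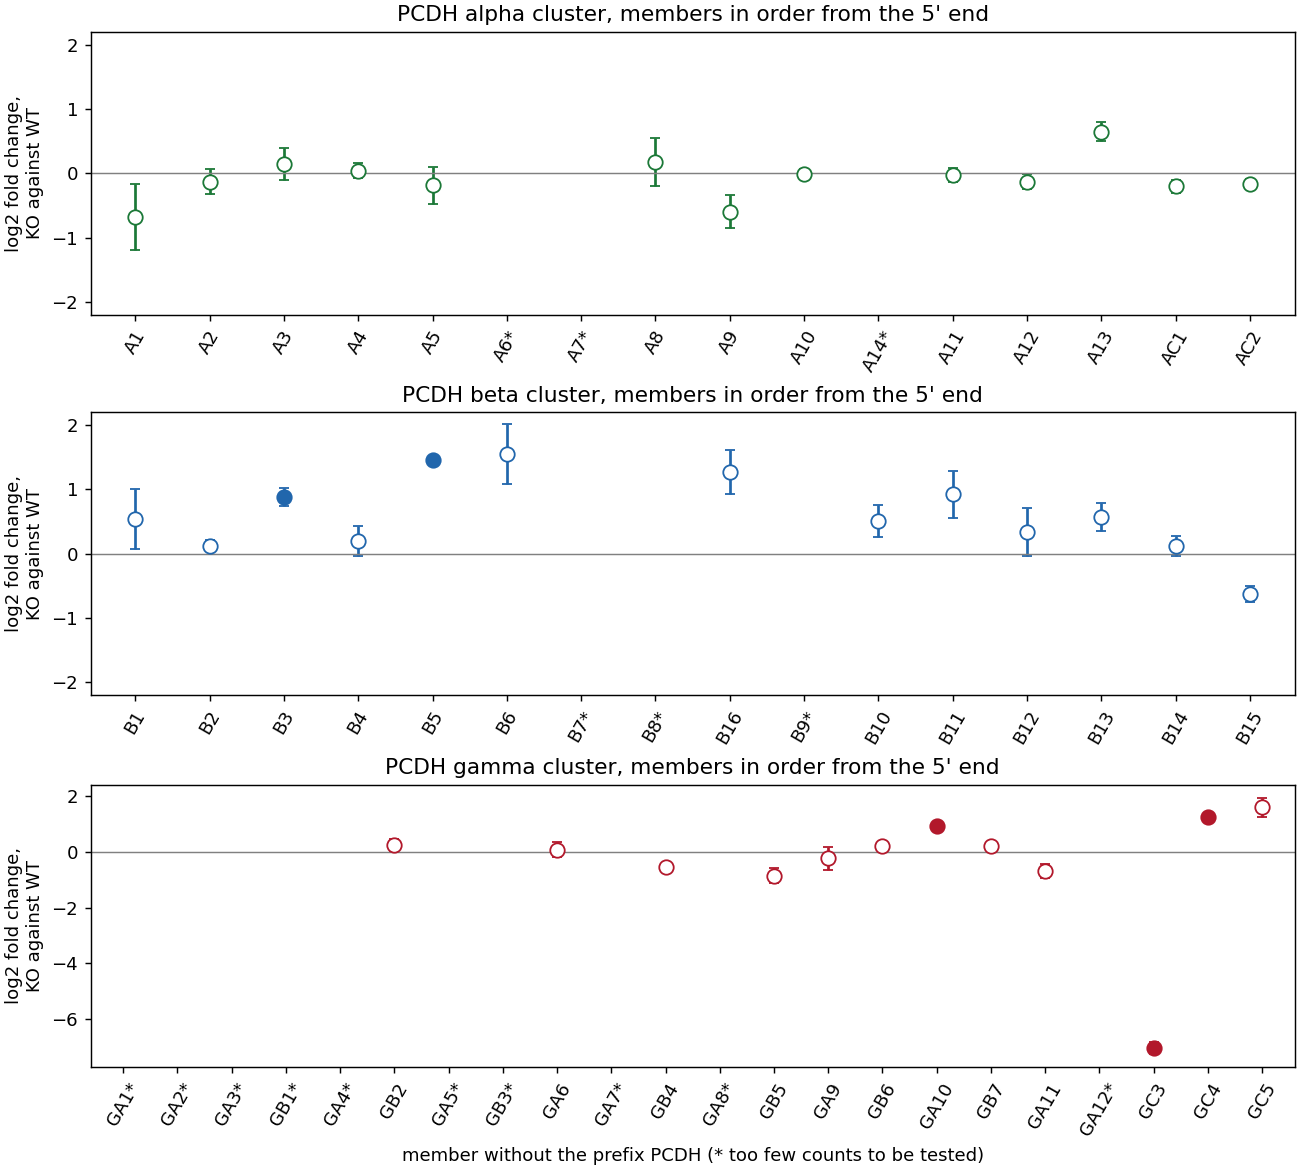
Log2 fold change of each clustered protocadherin in KO against WT (y axis, bars give the SE, 3 libraries per group), in order along chromosome 5 within the alpha, beta and gamma clusters; filled points have an adjusted p under 0.001 and names with an asterisk had too few counts to be tested. Alpha genes lie between -0.68 and 0.65, 12 of 13 beta genes lie above 0, and PCDHGC3 stands at -7.05 beside PCDHGC4 at 1.25 (the scale of the gamma panel differs).

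PCDHGC3, the first of the 3 C-type genes of the gamma cluster, fell to a few counts in the S6K1-/- libraries. In its cluster 12 genes were tested, with a median log2 fold change of 0.15, and 8 of them did not overlap between groups (66.7% against 30.7% of all genes), or 6 of 10 without PCDHGC3 and PCDHGC5, which were kept through 1 group alone. It had 354, 348 and 316 counts in WT and 4, 3 and 0 counts in KO. All KO libraries were far below all WT libraries, and PCDHGC3 was 13th of 19521 genes when ordered by p. Its level was 14.1 ± 0.471 CPM in WT and 0.0986 ± 0.0883 in KO (SD, n = 3 each). Pooled over the libraries, the 7 counts in KO against 1018 in WT made its level 139-fold higher in WT, with a 95% interval from 67.4 to 348 that covers counting error only (exact binomial), and the KO level was 0.717% of WT (0.288% to 1.48%). The fitted log2 fold change was -7.05 ± 0.23 (SE, adjusted p = 1.38e-11 in edgeR's quasi-likelihood test), a size that depends on the prior count at such low values and was -7.64 without KO replicate 1 and -6.52 without KO replicate 3. A filter that asks for 10 counts in every library would leave PCDHGC3 untested.

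The other C-type genes of the gamma cluster, the first of which starts 9050 bases further on and the second another 4084, had higher values in KO. PCDHGC4, known for its role in the survival of neurons, had 71, 55 and 78 counts in WT and 157, 156 and 152 in KO. Every KO library was above every WT library by a wide margin. The level of PCDHGC4 rose from 2.84 ± 0.565 to 6.73 ± 0.236 CPM, a log2 fold change of 1.25 ± 0.14 (SE, adjusted p = 1.20e-05 in edgeR's test). PCDHGC5, the last gene of the cluster, had 5, 5 and 13 counts in WT and 23, 23 and 22 in KO. Its groups did not overlap either, with WT replicate 3 the closest to KO, but its log2 fold change of 1.61 ± 0.35 did not pass (adjusted p = 0.00556), and it passed only when no filter on low counts was used (adjusted p = 4.16e-05). Without WT replicate 3 its log2 fold change was 2.24 (adjusted p = 0.00127). PCDHGC4 and PCDHGC5 together gained 4.55 CPM, from 3.16 ± 0.739 to 7.71 ± 0.262, whereas the 3 C-type genes together, PCDHGC3 included, went from 17.3 ± 0.579 to 7.81 ± 0.197 CPM.

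**Figure D2:**
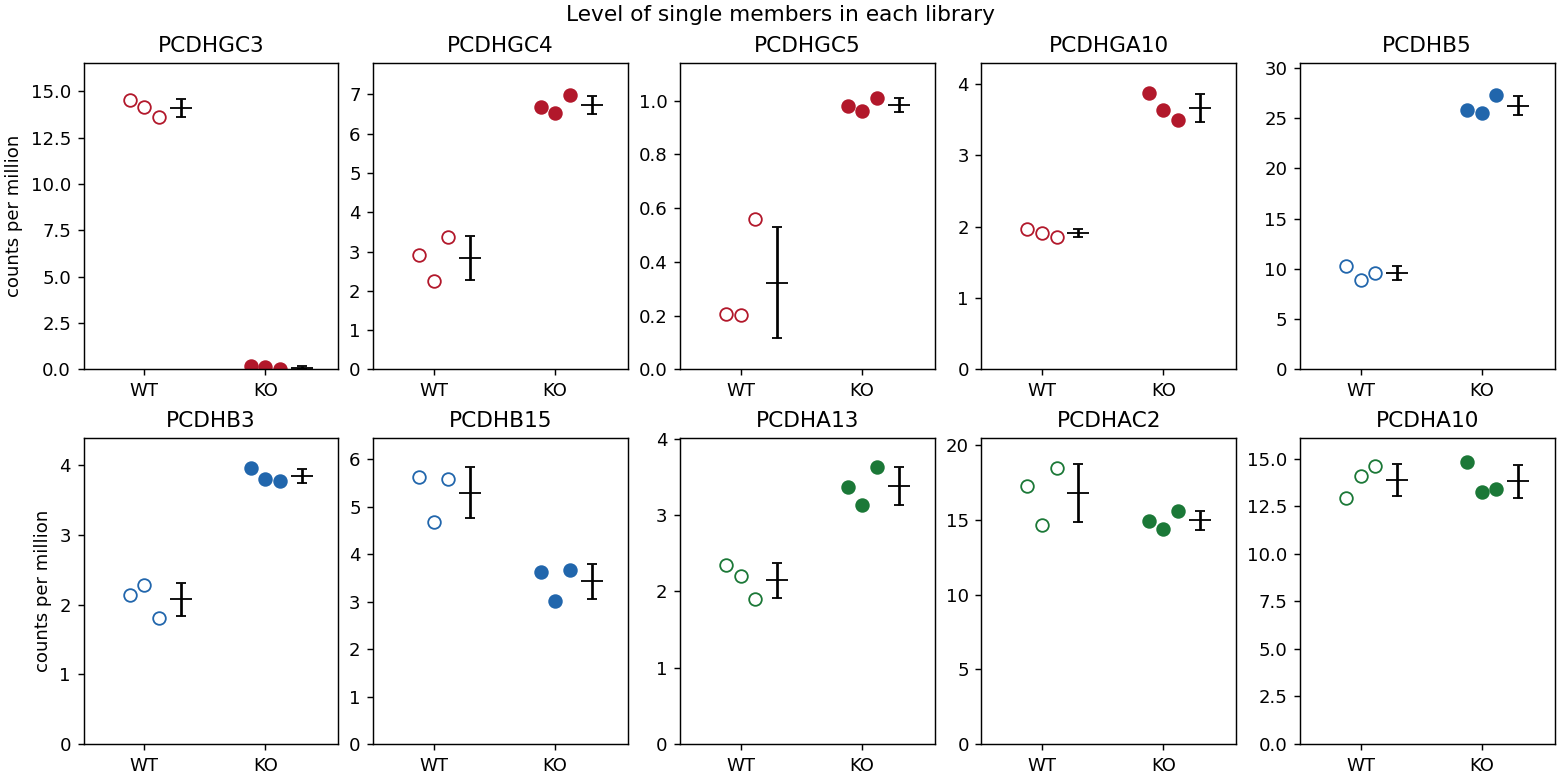
Level of 10 clustered protocadherins in each library, in CPM (y axis, linear from 0); open points are the 3 WT libraries, filled points the 3 KO libraries, and the dash and bar beside them give the mean and SD. WT and KO do not overlap for PCDHGC3, PCDHGC4, PCDHGC5, PCDHGA10, PCDHB5, PCDHB3, PCDHB15 and PCDHA13, and they overlap for PCDHAC2 and PCDHA10.

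Among the other gamma genes, which encode the A- and B-type adhesion proteins of the cluster, PCDHGA10 rose. It had 48, 47 and 43 counts in WT and 91, 87 and 76 in KO. The groups did not overlap, and its level went from 1.91 ± 0.0603 to 3.67 ± 0.194 CPM (log2 fold change 0.94 ± 0.14, SE, adjusted p = 3.12e-04 in edgeR's test). This call was lost when any single library was left out, at an adjusted p of 0.00123, 0.00118 and 0.00205 without WT replicates 1, 2 and 3 and of 0.00226, 0.00145 and 0.00119 without KO replicates 1, 2 and 3. PCDHGB7 and PCDHGB6 had the most counts among the A- and B-type genes. PCDHGB7 had 263, 202 and 241 counts in WT and 253, 286 and 244 in KO, which overlap (log2 fold change 0.21, adjusted p = 0.201). PCDHGB6 had 193, 160 and 174 counts in WT and 205, 197 and 189 in KO, with no overlap in CPM and a log2 fold change of 0.23 (adjusted p = 0.141). PCDHGB4 and PCDHGB5 were lower at the looser threshold of 0.05, with log2 fold changes of -0.54 (adjusted p = 0.0256) and -0.86 (adjusted p = 0.0420). Neither passed 0.05 by DESeq2's Wald test (adjusted p = 0.141 and 0.178), nor with several of the single libraries left out. PCDHGB4 reached 0.0766 without WT replicate 1, 0.0960 without WT replicate 3, 0.0755 without KO replicate 2 and 0.0753 without KO replicate 3, and PCDHGB5 reached 0.199 without WT replicate 3 and 0.134, 0.0684 and 0.109 without KO replicates 1, 2 and 3.

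The direction of the gamma cluster as a whole depended on PCDHGC3. All gamma genes together had 46.7 ± 3.73 CPM in WT and 39.9 ± 0.716 in KO (ratio 0.853), and without PCDHGC3 they had 32.6 ± 3.82 and 39.8 ± 0.628 CPM (ratio 1.22). Neither sum overlapped between the groups. The A- and B-type genes alone had 29.5 ± 3.16 CPM in WT and 32.1 ± 0.868 in KO, which overlapped. PCDHGC3 took 30.3 ± 2.84% of the counts of the gamma cluster in WT and 0.245 ± 0.219% in KO. The share of PCDHGC4 went from 6.04 ± 0.789% to 16.9 ± 0.879%, of PCDHGA10 from 4.11 ± 0.369% to 9.19 ± 0.354%, of PCDHGB7 from 20.9 ± 1.42% to 28.4 ± 1.55% and of PCDHGB6 from 15.6 ± 0.558% to 21.4 ± 0.892%. Shares within a cluster are tied to each other, so a lower share of PCDHGC3 raises the others.

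**Figure D3:**
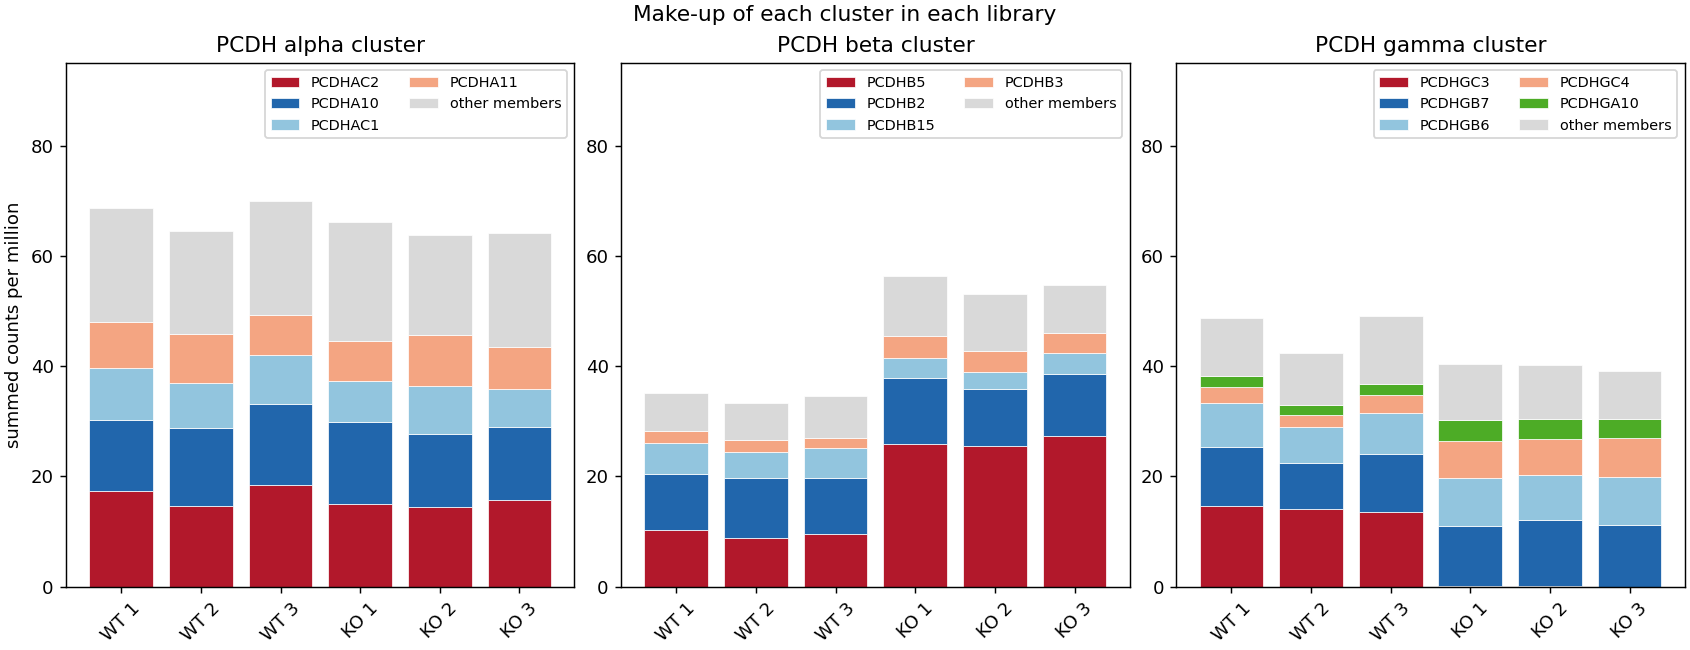
Summed CPM of the alpha, beta and gamma genes in each of the 6 libraries (y axis), split by gene, with the genes not named in a panel in grey. The alpha bars are alike in WT and KO, PCDHB5 takes 27.9% of the beta counts in WT and 47.9% in KO, and the PCDHGC3 segment, 30.3% of the gamma counts in WT, is at most 0.422% in KO.

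In the beta cluster PCDHB5, at chr5:141135206-141138615, was the gene that rose most clearly. It had 250, 218 and 223 counts in WT and 606, 611 and 594 in KO, with no overlap. Its level rose from 9.58 ± 0.701 to 26.2 ± 0.948 CPM (log2 fold change 1.45 ± 0.07, SE, adjusted p = 1.79e-09 in edgeR's test), and it was 14th by p among the genes higher in KO. PCDHB3 also rose, from 52, 56 and 42 counts to 93, 91 and 82, with a log2 fold change of 0.89 ± 0.14 (adjusted p = 5.53e-04). That call did not survive leaving out 5 of the libraries in turn, with an adjusted p of 0.00206 without WT replicate 1, 0.00380 without WT replicate 3, and 0.00327, 0.00242 and 0.00246 without KO replicates 1, 2 and 3, while the groups did not overlap. Antisense genes cover 501 of the 3410 exonic bases of PCDHB5 and 393 of the 3355 of PCDHB3, and the strand setting of the counting is not given in the sources used here, so reads of an antisense partner may be among these counts.

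Most other beta genes had log2 fold changes above 0 that did not pass. In all, 12 of the 13 tested beta genes had a log2 fold change above 0, the median was 0.53, and 8 of the 13 did not overlap between groups (61.5% against 30.7% of all genes). PCDHB6, PCDHB11 and PCDHB16 were kept by the filter through the KO libraries alone, which favours values above 0. Without them 9 of 10 were above 0, the median was 0.43 and 5 of 10 did not overlap (50% against 30.0%). PCDHB6 (5, 1 and 8 counts in WT, 15, 15 and 10 in KO, log2 fold change 1.55, adjusted p = 0.0401) and PCDHB16 (10, 11 and 6 counts, then 21, 29 and 13, log2 fold change 1.27, adjusted p = 0.0206) were at low levels, and neither passed 0.05 by DESeq2's Wald test (adjusted p = 0.121 and 0.0783). Leaving out WT replicate 3 moved PCDHB6 to 2.19 (adjusted p = 0.0238), and it did not pass 0.05 with any other single library left out (adjusted p from 0.0587 to 0.129). PCDHB16 did not pass without WT replicate 3 (0.0890) or without KO replicate 1 (0.0565) or 2 (0.115). PCDHB2, whose level per kb in WT overlapped that of PCDHB5, had 246, 266 and 233 counts in WT and 283, 248 and 247 in KO, with overlap (log2 fold change 0.12, adjusted p = 0.379). Antisense genes cover 1797 of the 4098 exonic bases of PCDHB2, so its counts and its level per kb may hold reads of a partner. PCDHB15, the last gene of the cluster, was the exception in direction, with 137, 115 and 130 counts in WT and 85, 72 and 80 in KO. Its groups did not overlap, and its log2 fold change of -0.63 ± 0.13 missed the threshold (adjusted p = 0.00381), which it passed with no filter on low counts (adjusted p = 1.44e-04). The summed level of the cluster was 34.3 ± 0.965 CPM in WT and 54.7 ± 1.61 in KO (ratio 1.60), and without PCDHB5 it was 24.7 ± 0.304 and 28.5 ± 1.72 (ratio 1.15), neither with overlap.

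No gene of the alpha cluster was called by edgeR's test (3.96% of all genes tested were) or by DESeq2's Wald test. Of the 13 tested, 2 had an unadjusted p under 0.05 in edgeR (26.4% of all genes had). The 13 tested alpha genes had a median log2 fold change of -0.13, and 1 of them, PCDHA13 (57, 54 and 44 counts in WT, 79, 75 and 79 in KO), had groups that did not overlap, 7.69% against 30.7% of all genes. Its log2 fold change was 0.65 ± 0.15 (adjusted p = 0.00832). The alpha genes with the most counts overlapped between groups in CPM. PCDHAC2 had 421, 360 and 429 counts in WT and 351, 344 and 340 in KO (log2 fold change -0.17, adjusted p = 0.228), PCDHA10 had 315, 347 and 339 and then 348, 317 and 292 (-0.01, adjusted p = 0.976), and PCDHAC1 had 228, 203 and 208 and then 175, 210 and 150 (-0.20, adjusted p = 0.233). Summed over the cluster, the level was 67.7 ± 2.91 CPM in WT and 64.7 ± 1.30 in KO, which overlapped, and PCDHAC2 took 24.7 ± 1.86% and 23.2 ± 1.04% of it. Antisense genes cover 2719 of the 2726 unshared bases of PCDHA1, so its count (10, 13 and 14, then 16, 2 and 4) may hold reads of its partner.

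Levels of different genes were compared as CPM per kb of exon not shared with another clustered protocadherin. In WT hESCs the order was PCDHAC2 (5.10 ± 0.595), PCDHGC3 (4.33 ± 0.145), PCDHGB7 (3.52 ± 0.498), PCDHB5 (2.81 ± 0.206) and PCDHB2 (2.52 ± 0.106), and libraries of neighbours in this order overlapped except between PCDHGC3 and PCDHGB7. In S6K1-/- hESCs PCDHB5 came first (7.68 ± 0.278), followed by PCDHAC2 (4.55 ± 0.190), PCDHGB7 (4.06 ± 0.213), PCDHB2 (2.75 ± 0.208) and PCDHGC4 (2.41 ± 0.0846), which had been 13th in WT, and no neighbours among these overlapped. PCDHGC3 was last of the 53 genes in KO, at 0.0303 ± 0.0271, its libraries overlapping those of PCDHGA3 in 52nd place (0.0331 ± 0.0341). The C-type genes of the alpha cluster, PCDHAC2 and PCDHAC1, were 1st and 8th in WT and 2nd and 8th in KO, the libraries of PCDHAC1 overlapping those of PCDHA12 in 7th place in both groups and those of PCDHGB6 in 9th place in KO, while PCDHGC3 and PCDHGC4 moved in the order. The 16 genes that could not be tested, 10 of them gamma genes, had from 0 to 16 counts in any library.

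The protocadherins outside the clusters, which have their own constant parts, also moved in both directions. Of 12 such genes, 11 were tested, 1 fell and 2 rose (27.3% called against 3.96% of all genes), and 7 did not overlap between groups (63.6% against 30.7%), or 5 of 8 without the 3 kept through 1 group alone. PCDH7 had 85, 61 and 58 counts in WT and 23, 23 and 21 in KO (log2 fold change -1.54, adjusted p = 7.03e-05). PCDH17 had 52, 43 and 52 counts and then 130, 98 and 95 (1.19, adjusted p = 9.29e-05), and PCDH11X, an X-linked protocadherin, had 918, 866 and 980 and then 1351, 1306 and 1182 (0.53, adjusted p = 1.92e-05). None of these overlapped between groups. The median over the 11 was -0.17, next to 0.14 over the 38 clustered genes. Without the genes kept through 1 group alone, it was -0.05 over 8 and 0.10 over 32. The difference between the families was not tested.

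A list of 28 genes that act on the clusters (CTCF, cohesin and its loaders, DNA methylation and demethylation enzymes, and silencing factors) had 26 tested genes, of which 2 fell and 2 rose (15.4% called against 3.96% of all genes). SETDB1, a histone H3K9 methyltransferase, had 1556, 1464 and 1458 counts in WT and 1037, 1068 and 992 in KO (log2 fold change -0.47, adjusted p = 3.78e-06). DNMT3B, a de novo DNA methyltransferase that is also a marker of pluripotent cells, had 34830, 34421 and 32650 and then 27268, 26076 and 23269 (-0.35, adjusted p = 4.88e-05). Both were lower in every KO library. CTCFL, a germline paralog of CTCF, had 40, 34 and 35 counts in WT and 175, 155 and 166 in KO (2.24, adjusted p = 1.71e-08), and LRIF1, a partner of the silencing factor SMCHD1, had 568, 597 and 555 and then 814, 745 and 733 (0.48, adjusted p = 5.13e-05). SMCHD1 itself did not pass (0.20, adjusted p = 0.00780). For CTCF the log2 fold change was 0.01 (adjusted p = 0.940), and none of the 5 cohesin subunits listed was called. RAD21, SMC1A and SMC3 had 0.01, 0.08 and 0.14 with overlapping libraries, whereas STAG1 (0.23, adjusted p = 0.00879) and STAG2 (-0.10, adjusted p = 0.138) did not overlap between groups. The part of these genes in the protocadherin differences was not tested.

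**Figure D4:**
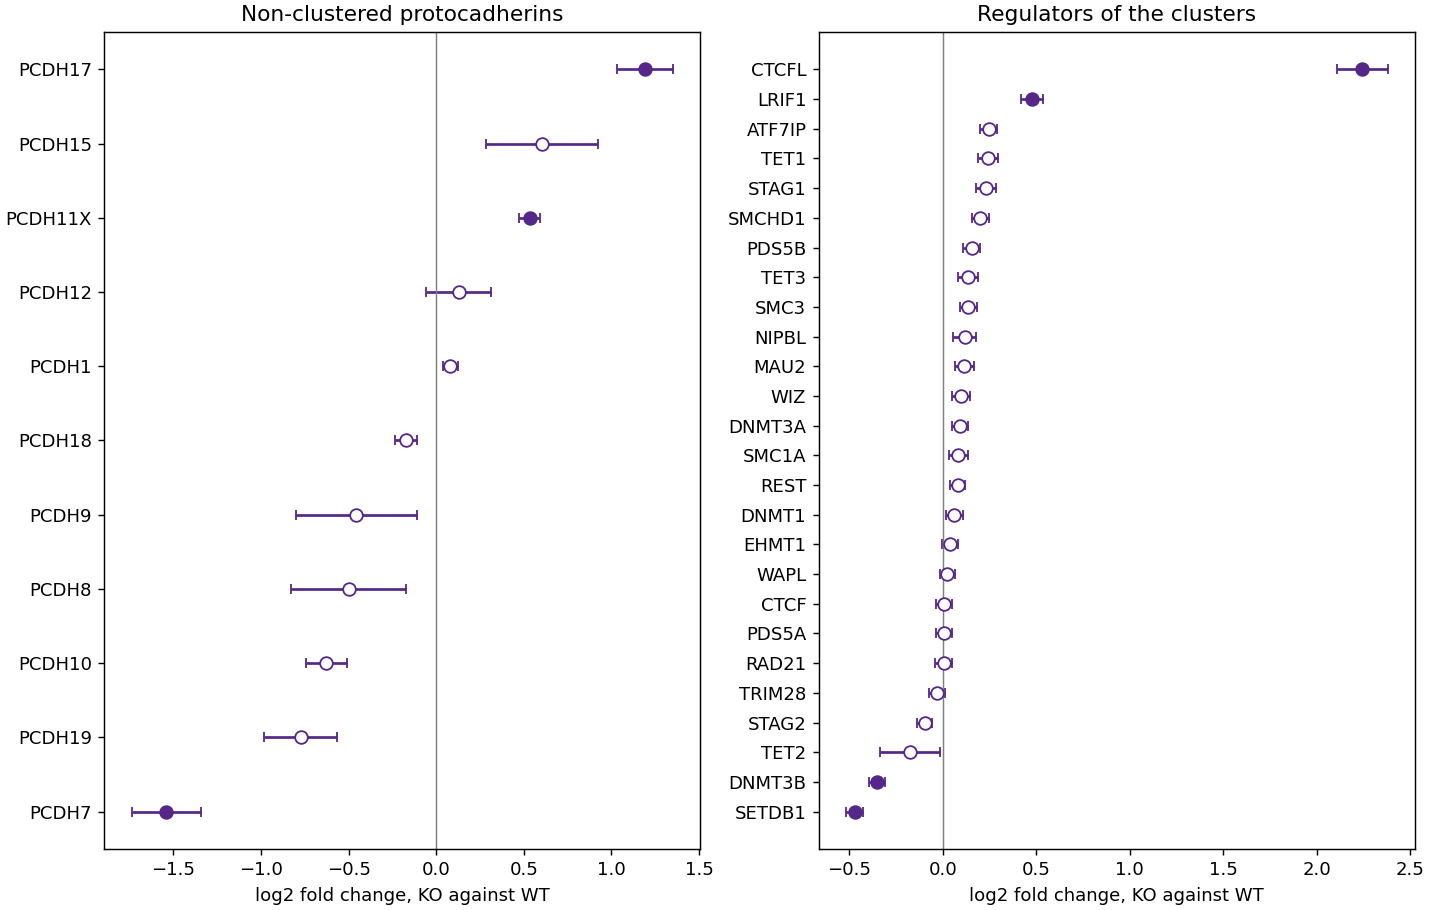
Log2 fold change in KO against WT (x axis, bars give the SE, 3 libraries per group) of the 11 tested non-clustered protocadherins (left) and of the 26 tested regulators of the clusters (right), with filled points at an adjusted p under 0.001. PCDH7 lies at -1.54, PCDH17 at 1.19 and CTCFL at 2.24, while CTCF and RAD21 lie at 0.01.

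The proteins that clustered protocadherins bind or that cleave them, such as the kinases PTK2, PTK2B, FYN and RET, the WAVE complex and the secretases, were 18 tested genes. Of these, 0 were called, where 3.96% of all genes tested were. RET and CYFIP2 had the smallest p, at log2 fold changes of 0.31 and 0.17 and adjusted p of 0.00822 and 0.0197. Of 91 annotated genes inside or within 500 kb of the clusters that are no members, 44 were found in the table and 27 tested. Again 0 of these neighbours were called, against 3.96% of all genes. Their log2 fold changes ran from -0.21 to 0.19 with a median of 0.04. TAF7, a general transcription factor gene that lies between the beta and gamma clusters, was at one end with 2678, 2677 and 2588 counts in WT and 2252, 2160 and 2154 in KO (adjusted p = 0.00321), and HARS, for histidyl-tRNA synthetase, at the other with 1333, 1358 and 1278 and then 1484, 1485 and 1374 (adjusted p = 0.00523). Both had groups that did not overlap. At an unadjusted p under 0.05 there were 4 of the 18 partner genes and 6 of the 27 neighbours, next to 26.4% of all genes tested, and DESeq2's Wald test also called 0 in both lists.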

How the data were processed

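Bulk RNA was sequenced from 3 WT and 3 S6K1-/- libraries of undifferentiated H7 hESCs, made with a stranded mRNA kit. Reads were trimmed with Trim Galore 0.6.5, aligned to GRCh38 with Bowtie2 2.4.5, which does not align across splice junctions, and counted with featureCounts, per the submitters' processing notes. The deposited table holds raw counts per gene symbol, not normalized. Which annotation and strand setting were used is not given in the sources used here. A second deposited table holds the authors' own DESeq2 comparison (mean, log2 fold change, standard error, statistic and p-values) and was not used.

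Counts were filtered with edgeR's filterByExpr, scaled by TMM and tested for a genotype effect by quasi-likelihood (glmQLFit and glmQLFTest of edgeR 4.0.16, R 4.3.3). Benjamini-Hochberg adjustment ran over 19521 genes, with a threshold of 0.001. A standard error is the log2 fold change divided by the root of F. The common dispersion was 0.00216. On simulated data with 19257 genes, 199 of 200 genes changed by 1 on the log2 scale were called and 0 unchanged ones. The changed genes were drawn only from those with higher mean counts, at a fixed dispersion. This rate therefore does not cover genes at low counts, such as many clustered protocadherins. Positions and shared exons came from GENCODE release 44 and promoters from RefSeq (GRCh38.p14), and 44 of 91 neighbouring genes matched the table by symbol. Alternatives were DESeq2 1.42.0 (Wald test, size factors), 2 other filters, a replicate block, leaving out each library, and a threshold of 0.05. Library pairs within a group differed by more than counting noise (chi-square over its degrees of freedom was 2.23 or more), so none was counted as a duplicate.

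The genes and gene lists were chosen with earlier results of these data known. The text names, from the clusters, all called genes, those with an adjusted p under 0.05, the C-type genes and the 3 with the most counts in each cluster, and from the other lists the called genes or, with none called, the 2 with the smallest p. PCDHA1, PCDHA8, PCDHA9, PCDHA11, PCDHA12, PCDHB11, PCDHGA3, SMCHD1, CTCF, the cohesin subunits, the kinases PTK2, PTK2B and FYN, and the markers POU5F1, TDGF1, ZFP42, NEUROD1, NEUROG2, ELAVL4 and SOX1 are named outside this rule. These were chosen after their values were seen, as were the counts without genes that the filter (10 counts at the median library size, in 3 libraries) kept through 1 group alone.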

Additional observations from a re-analysis of the deposited data

How the results depend on the processing

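The fall of PCDHGC3 and the rises of PCDHB5 and PCDHGC4 kept their direction and their side of the threshold under each alternative in which they were tested, and no called value changed sign. The log2 fold change of PCDHA10, -0.01 and never called, lay above 0 in 6 alternatives, at 0.04 at most. With the stricter filter of 10 counts in every library, 29 clustered genes were tested and the number lower was 0, also within the gamma cluster, since PCDHGC3 is left out by construction. With no filter, 53 were tested and 2 were lower (1 of them in the beta cluster), and 3 non-clustered protocadherins, 1 neighbour (TAF7, adjusted p = 1.30e-04) and, over all genes, 982 were lower and 591 higher. The number of clustered genes higher in KO ranged from 2 to 3 when single libraries were left out, in the beta cluster from 1 to 2 and in the gamma cluster it was 1 in each case. Over all genes those counts ranged from 313 to 445 lower and from 175 to 235 higher. The regulators higher in KO numbered 4 by DESeq2's Wald test and 5 with no filter. At an adjusted p under 0.05, the numbers were 1622 lower and 1067 higher over all genes, 4 and 8 over the clustered genes, 1 higher in the alpha cluster, 1 lower and 4 higher in the beta cluster, 3 lower in the gamma cluster, 3 lower among non-clustered protocadherins, 7 higher among regulators, 2 higher among partners, and 2 lower and 3 higher among neighbours. Of the alternative values for single genes, 329 stayed on the same side of the threshold, 14 passed only there and 13 no longer passed. All 66 values of cluster shares, which had no test, moved by less than the spread between libraries. Shares come from raw counts, and leaving out 1 of 3 libraries moves a mean by less than that spread by construction. The shares therefore say nothing on how far the processing matters. The causes were not tested.

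With the replicate number as a replicate block, 2 clustered genes were higher, 1 in the beta and 1 in the gamma cluster, as PCDHB3 (adjusted p = 0.00168) and PCDHGA10 (0.00115) no longer passed, and at 0.05 PCDHB6 (0.0581) and PCDHGB5 (0.0509) did not pass either. Deviations of libraries with the same number correlated at 0.044, 0.011 and 0.043, and those with unlike numbers at -0.082 to 0.040. Such a check cannot exclude a shared batch, and nothing states that equal numbers mark paired libraries.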
